A study of Mus musculus with 10 samples.

Results

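Txnip, its arrestin-domain relatives Arrdc1, Arrdc2, Arrdc3 and Arrdc4, and the Mondo factors Mlxip and Mlxipl with their partner Mlx were followed in mouse lung tumours with and without targeting of Slc2a1, which encodes the glucose transporter Glut1. These 8 genes were taken by symbol from a count table of 39017 genes. Each symbol occurred once, and all 8 were among the 16216 genes with enough counts to be tested. RNA sequencing covered 10 libraries of tumours macrodissected from male C57BL/6 mice at 18 weeks and 6 days after tumour initiation. KP is the control group (5 libraries) and KPG1 the group labelled KO (5 libraries), in which both copies of Slc2a1 are floxed (homozygous fl/fl). The KP animals are labelled heterozygous fl/wt for the same allele, while another label and the design text call them wild type, so the labels leave unclear how many intact copies KP tumours had. In both groups tumours were started by Ad5SPC-Cre, an adenovirus that makes Cre recombinase from the promoter of surfactant protein C and so acts in cells that use this promoter, mainly alveolar type 2 cells. RNA came from the fraction left after magnetic removal of CD45-positive immune cells. The labels do not state whether libraries of a group came from separate mice, so the p-values measure only the spread between these libraries, which may be technical.

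Mondo factors are transcription factors that respond to glucose inside the cell. Glucose is phosphorylated by hexokinases, and the resulting glucose-6-phosphate promotes the nuclear entry and activity of MondoA (Mlxip) and ChREBP (Mlxipl), which bind DNA together with Mlx at carbohydrate response elements. Txnip and Arrdc4 are the best known direct targets of this system. TXNIP binds thioredoxin and promotes the internalisation of glucose transporters, Glut1 among them, so that the pathway forms a brake on glucose uptake. The other arrestin-domain proteins are adaptors that bring ubiquitin ligases of the NEDD4 family to membrane proteins.

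Depth ranged from 32427029 to 49534284 counts per library, and the smallest count of any of the 8 genes in a library was 32, for Mlxipl. The epithelial gene Epcam lay between 333 and 626 counts scaled to a common library size (CPM) and the surfactant gene Sftpc between 5363 and 40159 CPM. Ptprc, which encodes CD45, was still counted, at 5.21 to 9.97 CPM in KP and 5.42 to 10.96 CPM in KPG1. All CPM values here are relative to library sizes scaled by TMM factors. Slc2a1 itself had 78.8, 127, 123, 109 and 71.7 CPM in KP 1 to KP 5 and 47.3, 66.8, 40.8, 51.3 and 44.3 CPM in KPG1 1 to KPG1 5. The groups did not overlap, and the KPG1 level was 49.7% of KP (log2 fold change -1.01, SE 0.195, limma adjusted p = 0.0675), which misses the threshold of 0.05 and passes it without KP 5 (adjusted p = 0.0220). With any other single library left out, the limma adjusted p of Slc2a1 was 0.0993 to 0.230. With all libraries kept it passed under DESeq2 (adjusted p = 0.000255), which called 125 genes higher and 423 lower. It also passed under limma with a quality weight for each library (adjusted p = 0.0171). The other alternatives with all libraries gave Slc2a1 an adjusted p of 0.0523 to 0.371. KP 5 stood apart from the other KP libraries, with the 8 proliferation markers summing to 46.3 CPM against 210 to 272 CPM in the other KP libraries and 231 to 399 CPM in KPG1. KP 1 stood apart in other lists. Its alveolar type 2 markers summed to 19005 CPM against 28538 to 63856 CPM in the other KP libraries. Its leukocyte markers summed to 475 CPM against 1629 to 3611 CPM. Values without KP 5 are given beside the members' results that it moved most. KP 5 is also the KP library whose sample number lies among those of KPG1, as given below.

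In the order of level per length, Txnip stood far above its relatives. Divided by the merged exon length of each gene, the KP mean was 494 ± 77.0 CPM per kb for Txnip (SD, n = 5), 76.1 ± 4.45 for Arrdc1, 36.2 ± 14.0 for Arrdc3 and 21.8 ± 5.07 for Mlx. Arrdc4 followed with 13.0 ± 5.16 CPM per kb, Mlxip with 10.8 ± 2.12 and Arrdc2 with 4.41 ± 1.15. Mlxipl, the ChREBP gene that is best known from liver and fat, was lowest at 0.320 ± 0.145 CPM per kb. By mean CPM, Txnip ranked 43 among the genes tested and Mlxipl 13384. Arrdc3 and Mlx could not be ordered, since Arrdc3 was the higher in 5 of 10 libraries, and the same held for Arrdc4 and Mlxip, where Arrdc4 was the higher in 4 of 10. Mlx was above Arrdc4 in 10 of 10 libraries although their KP ranges overlapped. The remaining neighbours in this order were separated in every library. Mlxip (MondoA) was thus above Mlxipl (ChREBP) in 10 of 10 libraries.

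The promoter windows of the 8 genes were read from RefSeq on GRCm38.p6, each with 250 bases before and 50 after an annotated start. All 8 genes matched, Arrdc3 and Mlxipl with more than 1 window. The windows were searched on both strands for the E-box CACGTG and for the half-site CACGNG of a carbohydrate response element, which includes the E-box. The E-box occurred in 7.15% of all 32851 windows of this kind and the half-site in 27.5%, or, counted by gene, in 8.09% and 30.3% of 27025 genes. A pair of half-sites with exactly 5 bases between them, the textbook spacing of such an element but looked for here with the Txnip sequence already in view, occurred in 27 windows (0.0822%) of 26 genes (0.0962%). Among the members, 6 of 8 held a half-site, 3 of 8 held an E-box (Arrdc4, Mlx and Mlxipl) and 1 of 8, Txnip, held the pair. No half-site lay in the windows of Arrdc3 and Mlxip. The stretches that hold these letters are shown for Txnip, the most abundant member, and for the E-boxes of Arrdc4 and Mlx, 5′ to 3′ on the strand of the gene with half-sites in capitals. They lie at chr3:96557807-96557926 on the plus strand for Txnip, chr7:68749369-68749488 on the minus strand for Arrdc4 and chr11:101087190-101087259 on the plus strand for Mlx.
Txnip: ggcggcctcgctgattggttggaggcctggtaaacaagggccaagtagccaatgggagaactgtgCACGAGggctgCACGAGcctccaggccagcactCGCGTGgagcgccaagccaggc
Arrdc4: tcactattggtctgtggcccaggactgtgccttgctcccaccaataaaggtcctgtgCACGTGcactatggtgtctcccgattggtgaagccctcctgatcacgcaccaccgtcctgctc
Mlx: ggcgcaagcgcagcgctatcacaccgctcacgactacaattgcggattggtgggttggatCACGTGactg
In Txnip the paired half-sites began 85 and 74 bases before the start, with a further half-site on the other strand beginning 52 bases before it. Another half-site of the Txnip window began 160 bases before the start, outside the stretch shown. The E-box began 193 bases before the start in Arrdc4 and 40 bases before it in Mlx. The Txnip stretch also overlaps an exon of Gm15441, an antisense gene of the opposite strand. A match of letters is a description of the sequence and no measurement of binding.

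The first question was whether the arrestin-domain targets of glucose sensing differ when the transporter gene is targeted. None of the 8 members passed an adjusted p of 0.05 over all genes tested (voom and limma with genotype as the only term), where 28 of 16216 genes passed (0.173%), 18 of them lower in KPG1 (0.111%). Without KP 5, 71 genes passed as higher and 223 as lower, with 1 member, Arrdc2, among them. At an unadjusted p of 0.05, 4 of 8 members were lower in KPG1, namely Arrdc4, Txnip, Arrdc2 and Arrdc3, and 0 were higher. Across all genes tested 6.31% were lower at that level. Groups without overlap, with every KPG1 library under every KP library, were found for 1 of 8 members, Arrdc4, against 1.76% of all genes. The median log2 fold change was -0.44 over the 8 members and 0.02 over all genes tested. In such bulk samples, fewer cells of a type and less RNA per cell cannot be told apart.

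**Figure D1:**
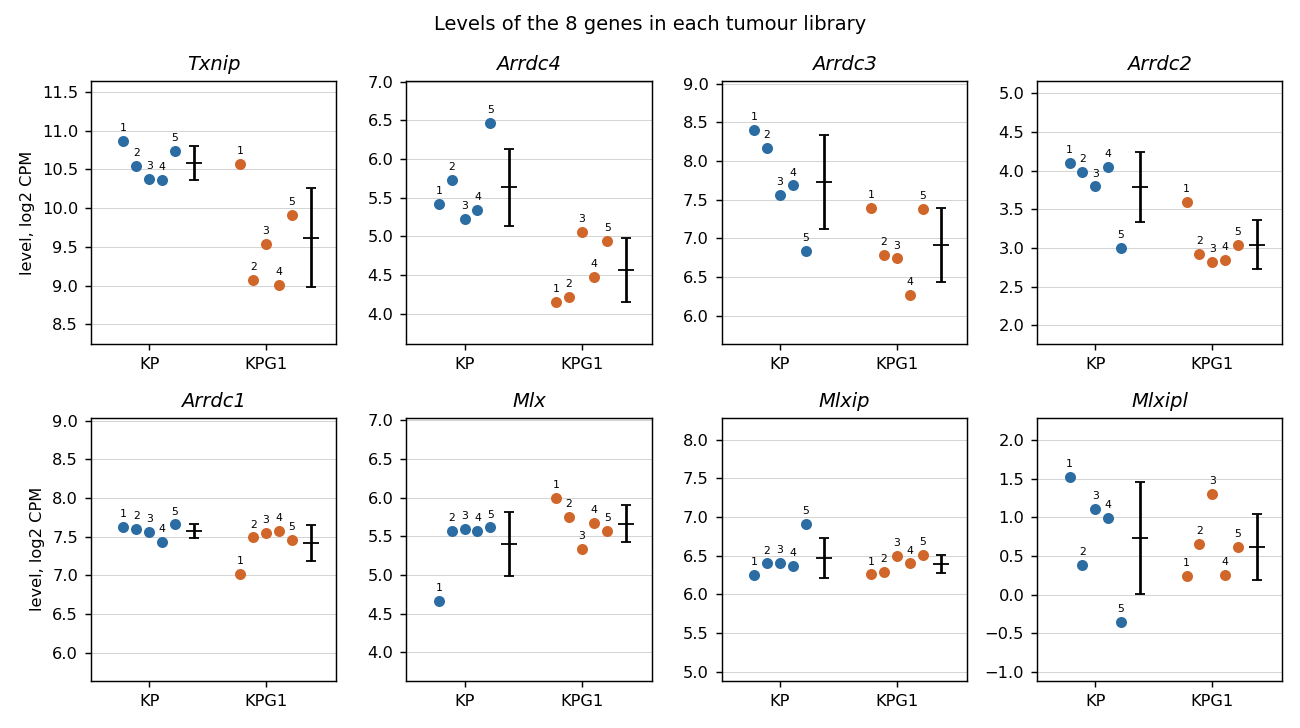
Level of each of the 8 genes (vertical axis, log2 CPM, every panel spanning the same number of log2 units) in the 5 KP and 5 KPG1 libraries. Numbers beside points are the replicate numbers and black bars give the mean ± SD. Arrdc4 is the gene whose groups do not overlap, Txnip overlaps through KPG1 1, and Arrdc2 and Arrdc3 overlap through KP 5.

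Txnip, on mm10 chromosome 3 from 96557957 to 96561883, had 1873, 1490, 1331, 1323 and 1704 CPM in KP 1 to KP 5. The KPG1 libraries had 1522, 537, 744, 517 and 961 CPM. In KPG1, 4 of 5 libraries lay under the lowest KP library, while KPG1 1 lay inside the KP range. The spread was wider in KPG1, with a coefficient of variation of 48.3% against 15.6% in KP. KPG1 tumours held 51.3% of the KP level (95% confidence interval 33.7 to 78.1%), a log2 fold change of -0.96 (SE 0.276, adjusted p by limma = 0.234). An exact two-sided permutation test of the group means over all rearrangements gave p = 0.0317. Over the libraries left out in turn, the log2 fold change ran from -1.21 without KPG1 1 (limma adjusted p = 0.0796) to -0.81 without KPG1 4 (adjusted p = 0.448). Without KP 5 it was -0.94 (adjusted p = 0.140). Txnip alone took 0.0516 to 0.205% of all counts of a library. Counts of the antisense gene Gm15441 amounted to at most 0.315% of the Txnip count, and since no source states whether counting used strand, reads of the overlap could not be told apart.

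Arrdc4, the other established Mondo target and a paralogue of Txnip, lies on chromosome 7 from 68736995 to 68749241. It had 42.9, 52.8, 37.4, 40.6 and 88.2 CPM in KP 1 to KP 5 and 17.7, 18.5, 33.2, 22.1 and 30.7 CPM in the 5 KPG1 libraries. The highest KPG1 library, KPG1 3, stayed under the lowest KP library, KP 3. The KPG1 level was 47.6% of KP (95% confidence interval 31.8 to 71.1%), with a log2 fold change of -1.07 (SE 0.265, adjusted p by limma = 0.165). By p-value it was gene 177 of 16216, and the exact permutation p was 0.00794, the smallest that 5 against 5 libraries allow. Arrdc4 passed the threshold under DESeq2 (adjusted p = 0.00609), a test that called 125 genes higher and 423 lower, and under none of the other alternatives. KP 5 held the highest value, and without it the log2 fold change was -0.87 (adjusted p = 0.0620). When each library was left out in turn, the log2 fold change ranged from -1.20 to -0.87. The limma adjusted p reached 0.334, without KPG1 4.

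Arrdc3, an adaptor known to bind integrin beta 4, lies on chromosome 13 from 80883384 to 80896042. It had 337, 288, 188, 205 and 114 CPM in KP 1 to KP 5 and 168, 110, 107, 77.0 and 166 CPM in the 5 KPG1 libraries. With 4 of 5 KP libraries above all of KPG1, the overlap came from KP 5. The KPG1 level was 56.7% of KP (95% confidence interval 35.8 to 89.7%), a log2 fold change of -0.82 (SE 0.302, adjusted p by limma = 0.333), with an exact permutation p of 0.0397. Without KP 5 the log2 fold change was -1.05 (adjusted p = 0.0747). Leaving out each library in turn gave -1.05 to -0.65, the latter without KP 1 (limma adjusted p = 0.440). The limma adjusted p was at most 0.586, without KPG1 4.

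Arrdc2, a less studied adaptor on chromosome 8 from 70835129 to 70839720, repeated the pattern of Arrdc3 at a much lower level. It had 17.1, 15.8, 13.8, 16.5 and 7.97 CPM in KP 1 to KP 5 and 12.02, 7.55, 7.001, 7.12 and 8.17 CPM in the KPG1 libraries. Again 4 of 5 KP libraries lay above all of KPG1 and KP 5 lay among them. The KPG1 level was 60.4% of KP (95% confidence interval 41.3 to 88.4%), a log2 fold change of -0.73 (SE 0.251, adjusted p by limma = 0.302), with an exact permutation p of 0.0238. Arrdc2 passed the threshold without KP 5 (log2 fold change -0.95, adjusted p = 0.0383) and where each library received a quality weight (adjusted p = 0.0279). It did not pass without any other library. There its limma adjusted p was as high as 0.553, without KPG1 3, and its log2 fold change as small as -0.64, without KP 1.

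Arrdc1, which drives the release of small vesicles from the plasma membrane, lies on chromosome 2 from 24925352 to 24935252 and was the steadiest arrestin-domain gene. Its levels ran from 173 to 202 CPM in KP and from 129 to 191 CPM in KPG1, with KPG1 1 the lowest. Its log2 fold change was -0.16 (95% confidence interval -0.43 to 0.12, adjusted p = 0.663). The interval leaves out a difference as large as the estimates for Txnip, Arrdc2, Arrdc3 and Arrdc4.

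The Mondo factors themselves gave no call in either direction. Mlxip (MondoA), on chromosome 5 from 123394798 to 123457932, ran from 76.0 to 121 CPM in KP and from 76.5 to 91.2 CPM in KPG1, with KP 5 the highest. Its log2 fold change was -0.08 (95% confidence interval -0.38 to 0.22, adjusted p = 0.863), and the sign turned without KP 5 (0.02). Mlx, the shared partner, lies on chromosome 11 from 101087277 to 101092207 and had 25.4 CPM in KP 1, 47.4 to 48.9 CPM in the other 4 KP libraries and 40.3 to 63.7 CPM in KPG1. Its log2 fold change was 0.26 (95% confidence interval -0.18 to 0.70, adjusted p = 0.643) and 0.08 without KP 1. The gene Psmc3ip overlaps Mlx on the other strand, with at most 10.1% of the Mlx count. Mlxipl (ChREBP), on chromosome 5 from 135089890 to 135138382, was counted 32 to 117 times per library, from 0.735 to 2.82 CPM in KP and from 1.14 to 2.42 CPM in KPG1. Its interval was wide (log2 fold change -0.11, 95% confidence interval -0.94 to 0.72, adjusted p = 0.936), and reached nearly to the estimate of Txnip. Without KP 5 the log2 fold change was -0.42 (adjusted p = 0.510).

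**Figure D2:**
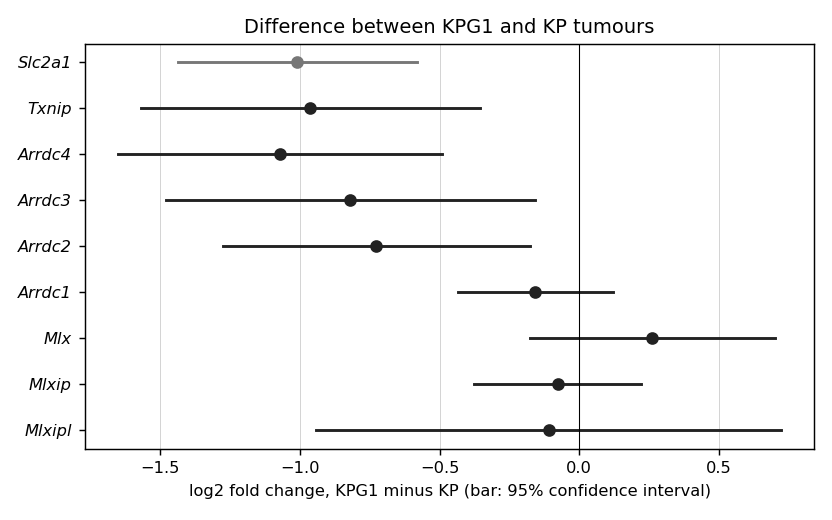
Log2 fold change of Slc2a1 (grey) and of the 8 genes (black) between KPG1 and KP tumours on the horizontal axis, with 95% confidence intervals as bars and n = 5 libraries a group. The intervals of Txnip, Arrdc4, Arrdc3 and Arrdc2 lie under 0, while those of Arrdc1, Mlx, Mlxip and Mlxipl include 0.

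Another measure moved with these genes. The 13 immediate-early and heat shock genes, which respond within minutes to stress and handling of cells, summed to 8546 to 13346 CPM in KP and to 3295 to 5984 CPM in KPG1, without overlap. Of these, 12 of 13 were lower in KPG1, 11 with an unadjusted p under 0.05, and Ier3 (-1.07, adjusted p = 0.0240) and Fosb (-1.82, adjusted p = 0.0464) passed over all genes; the list median was -1.16. Their part in the values of the arrestin-domain genes was not tested. Markers of cell types and of proliferation differed as well. The 10 alveolar type 2 markers were all higher in KPG1 by estimate (median 0.62, 4 with an unadjusted p under 0.05), with sums of 19005 to 63856 CPM in KP and 49195 to 89230 CPM in KPG1. The 6 epithelial markers summed to 4491 to 6119 CPM in KP and 3436 to 4120 CPM in KPG1, without overlap. Among them the keratins Krt18 (-0.87), Krt19 (-0.79) and Krt8 (-0.67) had an unadjusted p under 0.05 (limma adjusted p = 0.0501, 0.199 and 0.0699). Cdh1 (-0.10), Epcam (0.05) and Nkx2-1 (0.33) did not, so the lower sum is not shared by every marker. All 8 proliferation markers were higher in KPG1 by estimate (median 0.86, 2 with an unadjusted p under 0.05). Their sum was lowest in KP 5 (46.3 CPM), while the other KP libraries (210 to 272 CPM) overlapped KPG1 (231 to 399 CPM). The 10 endothelial markers, all higher by estimate (median 0.31, 0 with an unadjusted p under 0.05), summed to 335 to 1144 CPM in KP and 509 to 1620 CPM in KPG1, and the 10 fibroblast markers to 118 to 293 CPM and 189 to 319 CPM. Of 11 leukocyte markers tested, S100a9 (-1.98), S100a8 (-1.84) and Itgam (-1.04) had an unadjusted p under 0.05 (adjusted p = 0.142, 0.205 and 0.263), and 7 of the 11 were lower by estimate (median -0.26). The sum of the list ran the other way, from 475 to 3611 CPM in KP and from 2059 to 6215 CPM in KPG1, with Lyz2, which alveolar type 2 cells also express, at a log2 fold change of 0.99. The part of these cell types and of proliferation was not tested either.

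The sample numbers in the titles also ran with the groups, being 1, 4, 5, 9 and 10 in KPG1 and 6, 11, 12, 15 and 16 in KP. What the numbers stand for is not stated, and with so little overlap the number and the genotype can hardly be told apart. Number 6 belongs to KP 5, so in every result without KP 5 all KPG1 numbers lie below all KP numbers. In those results the number and the genotype cannot be told apart. With the number as a covariate, Txnip had a log2 fold change of -0.65 (limma adjusted p = 0.576), Arrdc3 of -0.34 (adjusted p = 0.808), Arrdc2 of -0.26 (adjusted p = 0.786) and Arrdc4 of -1.49 (adjusted p = 0.260). Only 1 of 8 members, Arrdc4, was then lower in KPG1 at an unadjusted limma p under 0.05. In that fit 1607 of 16216 genes had such a p in either direction.

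The second question was whether the members follow the level of Slc2a1 from tumour to tumour. Slc2a1 was counted over the whole gene in bulk samples, so its level need not be that of intact transcript in tumour cells. Since Slc2a1 was targeted in KPG1, each relation was computed over all 10 libraries and again on deviations from the genotype means. Of 8 relations 0 passed after Benjamini-Hochberg adjustment over the 8, pooled or within genotypes. Arrdc2 had the strongest pooled relation, with Pearson r = 0.74 (permutation p = 0.0226, adjusted p = 0.181) and Spearman rho = 0.71 (permutation p = 0.0277, adjusted p = 0.122). Without KP 2 and KP 3, the libraries farthest from the median of Slc2a1, r was 0.66 (exact permutation p = 0.0839), and within genotypes it was 0.33 (exact permutation p = 0.465, adjusted p = 0.744) and, without KP 5, -0.17. For Arrdc3 the pooled r was 0.59 (permutation p = 0.0736, adjusted p = 0.294; rho 0.70, permutation p = 0.0306, adjusted p = 0.122), 0.46 without KP 2 and KP 3 (exact permutation p = 0.248) and 0.10 within genotypes (exact permutation p = 0.8004, adjusted p = 0.894), or -0.37 there without KP 5.

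Txnip and Arrdc4 gave opposite signs between the pooled and the within-genotype relation. For Txnip the pooled r was 0.47 (permutation p = 0.168, adjusted p = 0.336; rho 0.42, permutation p = 0.234, adjusted p = 0.419), and within genotypes it was -0.49 (exact permutation p = 0.103, adjusted p = 0.410). Arrdc4 had a pooled r of 0.49 (permutation p = 0.154, adjusted p = 0.336; rho 0.62, permutation p = 0.0604, adjusted p = 0.161) and within genotypes -0.64 (exact permutation p = 0.0606, adjusted p = 0.410). Without KP 2 and KP 3 the pooled r was 0.41 for Txnip (exact permutation p = 0.308) and 0.43 for Arrdc4 (exact permutation p = 0.287). Within KP the libraries with the least Slc2a1, KP 5 and KP 1, held the most Txnip, and KP 5 held the most Arrdc4. Without KP 2 the within-genotype r of Arrdc4 was -0.80 and passed (exact permutation, adjusted p = 0.0333), and without KP 5 it was -0.46 (adjusted p = 0.472). For the other members the pooled r was 0.34 (Arrdc1, permutation p = 0.382), 0.12 (Mlxipl, p = 0.732), -0.08 (Mlxip, p = 0.868) and -0.13 (Mlx, p = 0.779), with adjusted p from 0.611 to 0.868.

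**Figure D3:**
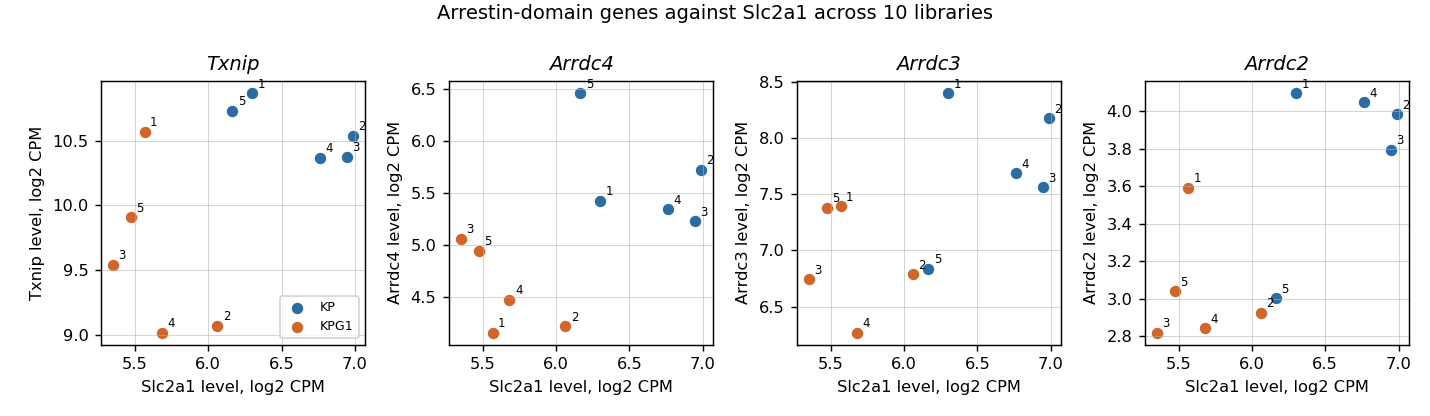
Levels of Txnip, Arrdc4, Arrdc3 and Arrdc2 (vertical axes, log2 CPM) against the level of Slc2a1 (horizontal axes, log2 CPM) in the 10 libraries, with the replicate number beside each point. KP (blue) and KPG1 (orange) do not overlap along the Slc2a1 axis, and with the genotype means removed r was -0.49 for Txnip and -0.64 for Arrdc4.

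Among themselves, Arrdc2 and Arrdc3 varied together. Of 28 pairs of members this pair was the 1 that passed, with r = 0.91 (permutation p = 0.0001, adjusted p = 0.0028) and rho = 0.98 (permutation p = 5e-05). Within genotypes r was 0.84 (exact permutation p = 0.00194, adjusted p over the 28 pairs = 0.0544), and without the 2 libraries farthest from the median of Arrdc2 it was 0.89. Across the libraries left out in turn, r of this pair stayed between 0.89 and 0.94, though without KP 1 its adjusted p was 0.0515. Without KP 5, 4 pairs passed. A further 4 pairs had an unadjusted p under 0.05 over all libraries. Txnip had r = 0.76 with Arrdc3 and 0.73 with Arrdc2 (permutation p = 0.0124 and 0.0218, both adjusted to 0.172). Within genotypes these were 0.55 and 0.42 (exact permutation p = 0.0797 and 0.191). Without KPG1 2 and KPG1 4, the libraries farthest from the median of Txnip, they were 0.56 and 0.63 (exact permutation p = 0.150 and 0.0992). Txnip and Arrdc4, the pair with the best known shared regulator, reached r = 0.62 over all libraries (permutation p = 0.0570, adjusted p = 0.234). Within genotypes r of this pair was 0.07 (exact permutation p = 0.843). KPG1 1 held the most Txnip (1522 CPM) and the least Arrdc4 (17.7 CPM) of the KPG1 libraries. The within-genotype r was not computed without it, so how far the low value rests on this library is not known. Arrdc4 and Mlxip had a pooled r of 0.70 (permutation p = 0.0245, adjusted p = 0.172). The pooled r was 0.06 without KP 5 and KPG1 1, the libraries farthest from the median of Arrdc4. This value still holds the genotype difference, and the within-genotype r was not computed without these libraries. With the genotype means removed and all libraries kept, r of this pair was 0.89 (exact permutation p = 0.00479, adjusted p over the 28 pairs = 0.0671). Mlx and Mlxipl ran in opposite directions, with r = -0.66 (permutation p = 0.0335, adjusted p = 0.188). Without KP 1 and KPG1 1, the libraries farthest from the median of Mlx, r of this pair was -0.51 (exact permutation p = 0.190). Within genotypes, 5 pairs had an unadjusted exact permutation p under 0.05 and 0 passed after adjustment. Besides the pairs of Arrdc2 with Arrdc3 and of Arrdc4 with Mlxip, these were negative relations of Arrdc2. Its r was -0.87 with Mlxip, -0.74 with Arrdc4 and -0.69 with Arrdc1 (exact permutation p = 0.0136, 0.0465 and 0.0100).

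The genes whose levels were most like those of Txnip over the 10 libraries were Churc1 (r = 0.95), 1110054M08Rik (0.94), Insig1 (0.94), Cep63 (0.94) and Fos (0.93), taken from 12877 genes whose mean log2 CPM was 1 or more. Insig1 restrains cholesterol synthesis and Fos is an immediate-early transcription factor. For Arrdc4 they were Egr1 (0.95), also an immediate-early gene, Ccdc9 (0.94), Alkbh3 (0.93), Ngfrap1 (0.92) and Mrgpre (0.90). These are the extremes of a search over all those genes and are given as a description with no test. Fos had 1575 to 2515 CPM in KP and 608 to 1337 CPM in KPG1, and Egr1 had 1268 to 2125 CPM in KP and 623 to 1021 CPM in KPG1. Both were separated between the groups, with log2 fold changes of -1.17 (Fos, limma adjusted p = 0.0852) and -1.07 (Egr1, adjusted p = 0.0501). With the genotype means removed, r with Txnip was 0.95 for Churc1, 0.88 for Cep63, 0.87 for 1110054M08Rik, 0.86 for Insig1 and 0.85 for Fos. With Arrdc4 it was 0.88 for Egr1 and 0.81 to 0.86 for the other genes named.

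**Figure D4:**
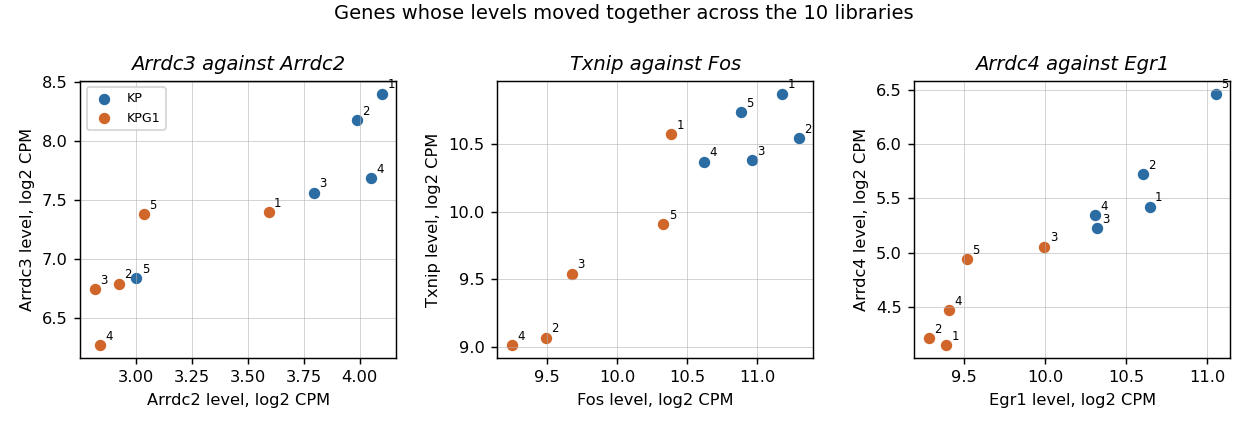
Arrdc3 against Arrdc2, Txnip against Fos and Arrdc4 against Egr1 (all axes log2 CPM) in the 5 KP (blue) and 5 KPG1 (orange) libraries, numbered by replicate. In each panel the points run upward from lower left to upper right, with r of 0.91, 0.93 and 0.95.

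Genes around the pathway were read from lists. Of the genes that make or use glucose-6-phosphate, 8 of 12 were tested and 1 had an unadjusted p under 0.05, Hk2, the inducible hexokinase, with a log2 fold change of -0.50 (limma adjusted p = 0.239). Hk2 had 177 to 247 CPM in KP and 116 to 177 CPM in KPG1, with groups that touched but did not overlap. Next by p-value were Gpi1, which converts glucose-6-phosphate to fructose-6-phosphate (-0.28, adjusted p = 0.451), and the barely counted Hk3 (-0.83, adjusted p = 0.482). The list median was -0.23.

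Of 22 genes known as Mondo targets other than the members, 19 were tested and 9 were higher and 10 lower by estimate, with a median of -0.02. None passed the adjusted threshold. The smallest p-values belonged to Bhlhe40, a clock-linked repressor (-0.77), Klf10, a zinc finger repressor (-0.85), both with an adjusted p of 0.0615, and Pfkfb3, which makes the activator of phosphofructokinase (-0.76, adjusted p = 0.206). Bhlhe40 had 476 to 672 CPM in KP and 266 to 386 CPM in KPG1, and Klf10 had 89.5 to 130 CPM and 48.5 to 76.3 CPM, so the groups did not overlap for either. Fasn, fatty acid synthase, was the gene of the list with a higher level at an unadjusted p under 0.05 (log2 fold change 0.72, adjusted p = 0.311).

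Of the 10 genes listed as the Max and Mlx network, Myc (-0.62, limma adjusted p = 0.142) and Mnt (-0.42, adjusted p = 0.239) were lower and Mycn (0.79, adjusted p = 0.420) higher at an unadjusted p under 0.05. The list median was -0.05. Of the arrestin-fold genes outside the family, 6 of 8 were tested and 0 had an unadjusted p under 0.05. Sag (0.45, adjusted p = 0.591) and the classical beta-arrestins Arrb1 (-0.23, adjusted p = 0.629) and Arrb2 (-0.21, adjusted p = 0.691) came first, and Arrdc5, the remaining member of the alpha-arrestin family, had 0 counts in every library. A count of 0 allows up to 3 counts in a library, for counting error only.

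The ligases and the cargo of the arrestin-domain proteins were read as separate lists, with no test between them. Of 9 NEDD4-family ligases, 0 had an unadjusted p under 0.05, with log2 fold changes from -0.11 to 0.38 and Smurf2 (0.20, limma adjusted p = 0.512), Wwp1 (0.38, adjusted p = 0.629) and Hecw2 (0.32, adjusted p = 0.704) first. Of 7 cargo and vesicle partners, 2 had one, among them Itgb4 (-0.65, adjusted p = 0.334), the integrin that Arrdc3 is known to bind. Tsg101, the vesicle partner of Arrdc1, had a log2 fold change of -0.30 (adjusted p = 0.447).

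Of the thioredoxin system, to which TXNIP binds, 0 of 7 genes had an unadjusted p under 0.05, and the first were Txndc17 (-0.23, limma adjusted p = 0.519), Txnrd3 (0.40, adjusted p = 0.547) and Txnrd2 (-0.31, adjusted p = 0.568). The kinase AMPK phosphorylates TXNIP for degradation, and of its 7 subunit genes 0 had an unadjusted p under 0.05, with Prkaa2 (0.74, adjusted p = 0.531), Prkaa1 (0.24, adjusted p = 0.696) and Prkab1 (-0.22, adjusted p = 0.779) first. Glucocorticoid and FOXO signals are other known inputs to arrestin-domain genes. Of 13 genes of that list, 10 were lower by estimate and 3 had an unadjusted p under 0.05: Tsc22d3 (-0.70, adjusted p = 0.133), Per1 (-0.98, adjusted p = 0.187) and Klf9 (-0.51, adjusted p = 0.356). Its median was -0.33, against 0.02 for all genes tested. None of the pathway lists held a gene past the adjusted threshold.

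**Figure D5:**
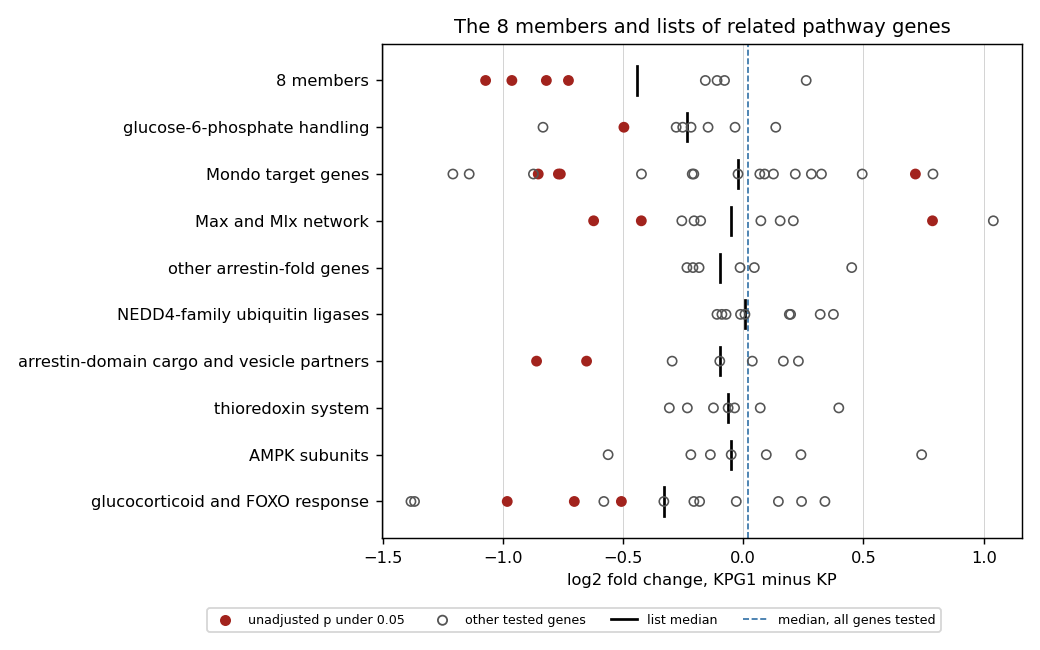
Log2 fold changes between KPG1 and KP (horizontal axis) of the 8 members and of the tested genes in each pathway list, each point being a gene. Filled points have an unadjusted p under 0.05, short lines mark list medians, and the dashed line marks the median of all genes tested (0.02). The 4 filled points of the members lie between -1.07 and -0.73, and the NEDD4-family ligases cluster around 0.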

How the data were processed

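Reads from poly(A) RNA libraries (TruSeq stranded mRNA) were processed by the authors. Per the labels, bcl2fastq 2.17, cutadapt 1.4.2, HISAT2, featureCounts 1.4.4, edgeR and build mm10 were used (the study's methods give another cutadapt version), while the strand setting and annotation release are not given in the sources used here. The authors deposited raw counts per gene, used here, and a log2 table of TMM-normalised values, used only as a check (largest difference for a member 0.0826). PCR duplicates could not be recognised, since no molecular identifiers were used. Levels of genes were compared per kb of GENCODE M21 merged exons, since counts rise with length.

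Genes were kept by filterByExpr and scaled by TMM (edgeR 4.0.16), then fitted by voom and limma 3.58.1 in R 4.3.3 with genotype as the only term and Benjamini-Hochberg adjustment over 16216 genes. The study filtered on TPM, which filterByExpr replaced. Log2 CPM used a prior count of 2. Exact permutation tests covered every rearrangement of the group means and 14400 within genotypes, and pooled relations used 100000 resamples (Python 3.11.15). Fits were tested on simulated data. Alternatives included DESeq2 1.42.0. Named were all members, Slc2a1, the 3 genes of smallest p in each pathway list, any list gene past the threshold and the 5 genes most like Txnip and Arrdc4; Fasn, Arrdc5, Psmc3ip, Gm15441 and the marker genes given were added after their values were seen. Members and lists were chosen with earlier results of these data known. The alleles common to both groups that initiate tumours, and some genes of the lists, are not reported here.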

Additional observations from a re-analysis of the deposited data

Results flagged for a closer look

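In 5 of 18 groups of 5 libraries (the 8 members and Slc2a1 in each genotype), 1 library lay far from the others, with a gap to its nearest neighbour above 0.71 of the group's range; chance gives about 1 in 20, here 0.9 groups. Mlx in KP 1 (4.67 log2 CPM) had a gap of 0.952 of the range, the widest of these. KP 5 was set apart for Mlxip on the high side (6.91 log2 CPM, gap 0.758) and for Arrdc2 on the low side (3.00 log2 CPM, gap 0.723). KPG1 1 was set apart for Arrdc1 on the low side (7.02 log2 CPM, gap 0.782) and for Arrdc2 on the high side (3.59 log2 CPM, gap 0.715).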

How the results depend on the processing

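No member passed the threshold under the other scalings, filters, edgeR, the replicate block or the sample number. DESeq2 called 1 member (Arrdc4) and the library weights 1 (Arrdc2); leaving out each library gave 0 to 1 (Arrdc2 without KP 5). Genes called over the whole table moved far more: the main fit gave 10 higher and 18 lower, no filter 31 lower, a mean CPM of at least 20 gave 5 and 31 (6 members tested), edgeR 29 lower, DESeq2 125 and 423, library weights 51 and 177, the sample number 4 and 4, and leaving out each library 3 to 71 higher and 1 to 223 lower, the highest of both without KP 5. With the replicate number as a block, 4 were higher and 1 lower and no member passed. The numbers did not pair the libraries, since same-numbered deviations correlated at -0.16 to 0.08 and 1 of 5 pairs matched best with its own number.

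Txnip, Arrdc1, Arrdc2, Arrdc3, Arrdc4 and Mlx kept their sign under every alternative run. Mlxipl turned with the sample number (0.13) and ranged from -0.42 to 0.10 over libraries left out, and Mlxip from -0.13 to 0.020. Within genotypes, 0 to 1 relations to Slc2a1 passed over libraries left out (Arrdc4 without KP 2). The within-genotype r of Arrdc1 turned with library size alone (0.040); over libraries left out it ranged from -0.17 to 0.52 for Arrdc2, -0.37 to 0.37 for Arrdc3 and -0.62 to 0.35 for Mlxipl, and the pooled r of Mlx from -0.25 to 0.049. Pairs of members past the threshold ranged from 0 (without KP 1) to 4 (without KP 5), with 2 without KPG1 1. The cause of these shifts was not tested. Every scaling left the median of all genes within 0.1 of 0. Mlxipl had the fewest counts (32 to 117 a library), and its level also varied between libraries by 45.4% in KP and 34.0% in KPG1 (coefficient of variation).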
